A study of Mus musculus with 12 samples.

Results

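The receptors for the constant part of IgG antibodies and their signalling chain were examined in mouse brain. Members were all probe sets annotated to Fcgr1, Fcgr2b, Fcgr3 or Fcer1g, which gave 7 of the 22690 probe sets and 4 of the 12393 genes measured, with 1 probe set each for Fcgr1, Fcgr3 and Fcer1g and 4 for Fcgr2b. The genes were selected on measured values: Fcgr1 was higher in USP18ko than in WT brains. The values of USP18ko against WT are therefore a description with no test, and so are the members' values in the other comparisons that use either of these groups.

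Whole-brain lysates of untreated adult mice kept under SPF conditions (free of specified pathogens) were hybridised to 12 one-colour Affymetrix 3′ expression arrays, 3 for each of 4 genotypes. USP18ko mice lacked Usp18, USP18ko:IFNARko mice lacked both Usp18 and Ifnar1, IFNARko mice lacked Ifnar1 (written IFNAR1ko in the study's design text), and WT mice were wild type. The labels give no strain, age in days, sex, batch or type of knockout allele, and do not tell whether each array came from a different animal. Errors and p-values therefore cover the spread between arrays, part or all of which may be technical. The authors deposited 1 log2 signal per probe set and array. Every difference is one of log2 signals, and errors of group means are SD with n = 3 arrays.

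Fc gamma receptors bind IgG on immune complexes and on coated cells. The activating receptors, Fcgr1, Fcgr3 and Fcgr4 in the mouse, have no signalling motif of their own and pair with the chain encoded by Fcer1g, whose cytoplasmic ITAM motif is phosphorylated by Src family kinases and then recruits Syk. Fcgr2b is the inhibitory receptor of the family and carries an ITIM motif that recruits phosphatases. In brain these receptors are known mainly from microglia and from macrophages at vessels and borders. USP18 is a protease that takes ISG15, a small ubiquitin-like modifier, off other proteins, and it also binds the type I interferon receptor, where it dampens signalling, and Ifnar1 encodes one chain of that receptor.

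Array checks bear on several values below. The Usp18 probe set read 3.76, 3.58 and 3.55 in USP18ko arrays and lay between 3.50 and 3.71 in USP18ko:IFNARko arrays and between 3.53 and 3.67 in IFNARko arrays, against 4.36, 4.36 and 4.04 in WT arrays, so it did not tell the double knockout from IFNARko. Ifnar1 read 6.24 to 6.68 in USP18ko:IFNARko and IFNARko arrays and 7.44 to 8.21 in the other 6. Xist, the transcript of the inactive X chromosome, was high (10.17 to 11.34) in the 3 USP18ko:IFNARko arrays and in WT replicate 1, and 4.98 to 5.69 in the other 8, so sex markers moved with the double knockout, and the part of sex in its comparisons cannot be told apart from that of genotype. USP18ko:IFNARko replicate 2 had high Xist and also the Y-linked Eif2s3y at 7.16, against 3.05 and 3.22 in the other USP18ko:IFNARko arrays. IFNARko replicate 1 stood apart, with actin probe sets 1.48 higher at the 3′ end than at the 5′ end of the transcript, against 0.20 to 0.54 in the other 11 arrays. The mean log2 signal per array ran from 10.06 to 10.95 for 9 neuron markers, from 9.33 to 9.83 for 8 astrocyte markers and from 6.84 to 9.53 for 7 oligodendrocyte markers, of which Mbp had group means of 11.51 to 11.81 and Mog of 3.91 to 4.60.

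Fcgr1, the high-affinity receptor for IgG, was the member with the largest difference between genotypes. Its signal was 7.57, 8.43 and 7.91 in USP18ko brains, 4.76, 4.78 and 4.89 in USP18ko:IFNARko brains, 5.11, 5.14 and 5.06 in IFNARko brains and 4.88, 5.61 and 5.26 in WT brains. All 3 USP18ko arrays lay above all 9 others, whereas the ranges of IFNARko and WT overlapped. The group means were 7.97 ± 0.43 in USP18ko, 4.81 ± 0.07 in USP18ko:IFNARko, 5.10 ± 0.04 in IFNARko and 5.25 ± 0.37 in WT (SD, n = 3 each). USP18ko minus WT was 2.72 (SE 0.21), and USP18ko:IFNARko minus USP18ko was -3.16 (SE 0.21). No fold change is given for any member, because the deposited values carry no detection calls and the lower signals could not be set against background.

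Fcer1g, the ITAM chain that the activating receptors share, had the second largest difference of the single-probe-set genes. It read 8.57, 9.22 and 8.83 in USP18ko brains, 7.27, 7.38 and 7.57 in USP18ko:IFNARko brains, 7.44, 6.92 and 7.44 in IFNARko brains and 6.73, 8.19 and 7.41 in WT brains. The USP18ko arrays were again above all others, and WT replicate 2 was the array nearest to them. Mean signals were 8.88 ± 0.33 in USP18ko, 7.40 ± 0.15 in USP18ko:IFNARko, 7.27 ± 0.30 in IFNARko and 7.45 ± 0.73 in WT (SD, n = 3 each). The difference was 1.43 for USP18ko minus WT and -1.47 for USP18ko:IFNARko minus USP18ko (SE 0.30 for both). Fcer1g also serves the high-affinity IgE receptor, whose ligand-binding chain Fcer1a differed by 0.15 (SE 0.12) between USP18ko and WT.

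Fcgr3, the low-affinity activating receptor, overlapped between USP18ko and WT. The signal was 7.36, 8.66 and 7.98 in USP18ko brains, 6.67, 6.97 and 7.06 in USP18ko:IFNARko brains, 7.60, 6.80 and 6.97 in IFNARko brains and 6.28, 7.65 and 7.05 in WT brains. USP18ko replicate 1 lay below WT replicate 2 and below IFNARko replicate 1, while all 3 USP18ko arrays were above the USP18ko:IFNARko arrays. Group means were 8.0 ± 0.65 in USP18ko, 6.90 ± 0.20 in USP18ko:IFNARko, 7.12 ± 0.42 in IFNARko and 6.99 ± 0.69 in WT (SD, n = 3 each). USP18ko minus WT was 1.01 (SE 0.36), and it was 0.65 when WT replicate 1 was left out. USP18ko:IFNARko minus USP18ko was -1.10 (SE 0.36), and -0.54 with the sex marker Eif2s3y as a covariate.

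**Figure D1:**
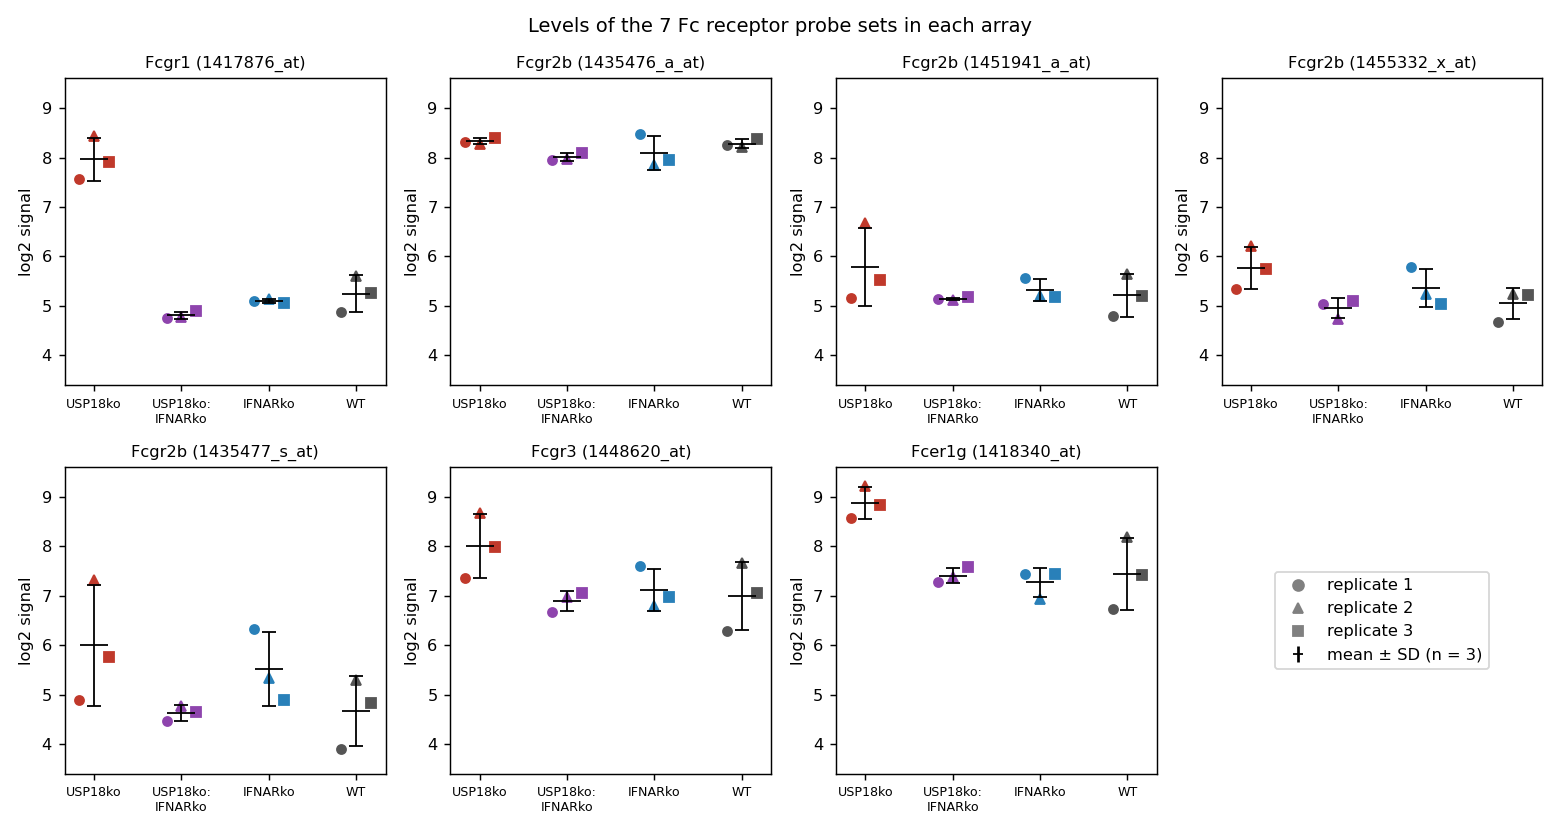
Log2 signal of each member probe set (vertical axis) on every array, with groups in the order USP18ko, USP18ko:IFNARko, IFNARko and WT; points are arrays and bars are group means with SD (n = 3). Fcgr1 sits at 7.57 to 8.43 in USP18ko and at or under 5.61 in all other arrays, whereas the Fcgr2b probe set 1435476_a_at stays between 7.84 and 8.47 in all 12.

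The 4 probe sets of the inhibitory receptor Fcgr2b did not show the same pattern. Probe set 1435476_a_at read 8.31, 8.28 and 8.40 in USP18ko brains, 7.96, 7.97 and 8.10 in USP18ko:IFNARko brains, 8.47, 7.84 and 7.95 in IFNARko brains and 8.25, 8.22 and 8.38 in WT brains. USP18ko and WT covered almost the same range, and the difference between them was 0.05 (SE 0.14). The USP18ko:IFNARko arrays lay below both, by -0.32 against USP18ko and -0.27 against WT.

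Of the other Fcgr2b probe sets, 1435477_s_at was the most variable between arrays. It read 4.90, 7.32 and 5.76 in USP18ko brains, 4.47, 4.77 and 4.64 in USP18ko:IFNARko brains, 6.33, 5.33 and 4.89 in IFNARko brains and 3.89, 5.29 and 4.82 in WT brains. USP18ko replicate 2 was the highest of the 12 arrays, and IFNARko replicate 1 the second highest. USP18ko minus WT was 1.32 (SE 0.55), and 0.66 without USP18ko replicate 2. USP18ko:IFNARko minus USP18ko was -1.37, -0.70 without that array and -0.65 with the Eif2s3y covariate.

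Probe set 1451941_a_at read 5.16, 6.67 and 5.52 in USP18ko brains, 5.13, 5.12 and 5.17 in USP18ko:IFNARko brains, 5.57, 5.20 and 5.19 in IFNARko brains and 4.79, 5.65 and 5.20 in WT brains. The arrays of USP18ko and WT overlapped. The difference of USP18ko minus WT, 0.57 (SE 0.32), was carried by 1 array. This difference was 0.13 without USP18ko replicate 2, 0.88 without USP18ko replicate 1 and 0.36 without WT replicate 1. USP18ko:IFNARko minus USP18ko was -0.64, -0.20 without USP18ko replicate 2 and -0.30 with the Eif2s3y covariate. Probe set 1455332_x_at read 5.35, 6.20 and 5.74 in USP18ko brains, 5.05, 4.73 and 5.11 in USP18ko:IFNARko brains, 5.79, 5.23 and 5.04 in IFNARko brains and 4.68, 5.25 and 5.22 in WT brains. Its USP18ko arrays were above the WT arrays, by 0.71 on average (SE 0.24), but 2 of them were below IFNARko replicate 1. They were above all USP18ko:IFNARko arrays, with a difference of -0.80 for USP18ko:IFNARko minus USP18ko. Averaged over the 4 probe sets, Fcgr2b was 6.47 in USP18ko and 5.80 in WT, a difference of 0.66 (SE 0.28). This average mixes differences of 0.05, 0.57, 0.71 and 1.32 from the single probe sets. It was not computed with single arrays left out.

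These 3 probe sets followed Fcgr3 more closely than they followed the fourth Fcgr2b probe set. After each was centred on its own mean over the 12 arrays, the root mean square difference to Fcgr3 was 0.27 for 1451941_a_at, 0.29 for 1455332_x_at and 0.42 for 1435477_s_at, and the root mean square difference to 1435476_a_at was 0.43, 0.35 and 0.82 for the same 3. Affymetrix uses the suffixes _s_at and _x_at for probe sets that can bind several transcripts, but 1451941_a_at carries neither and has the suffix of 1435476_a_at. The parts of mouse Fcgr2b and Fcgr3 that encode the extracellular domains are near-identical in sequence. Among themselves the 3 were also close: the difference was 0.23 between 1451941_a_at and 1455332_x_at. It was 0.49 between 1451941_a_at and 1435477_s_at and 0.50 between 1455332_x_at and 1435477_s_at. Which of the 2 transcripts any of the 4 probe sets read was not tested. The values of all 4, 1435476_a_at included, are uncertain as a measure of Fcgr2b. In the platform annotation 3 of the 4 Fcgr2b probe sets share 1 sequence accession.

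**Figure D2:**
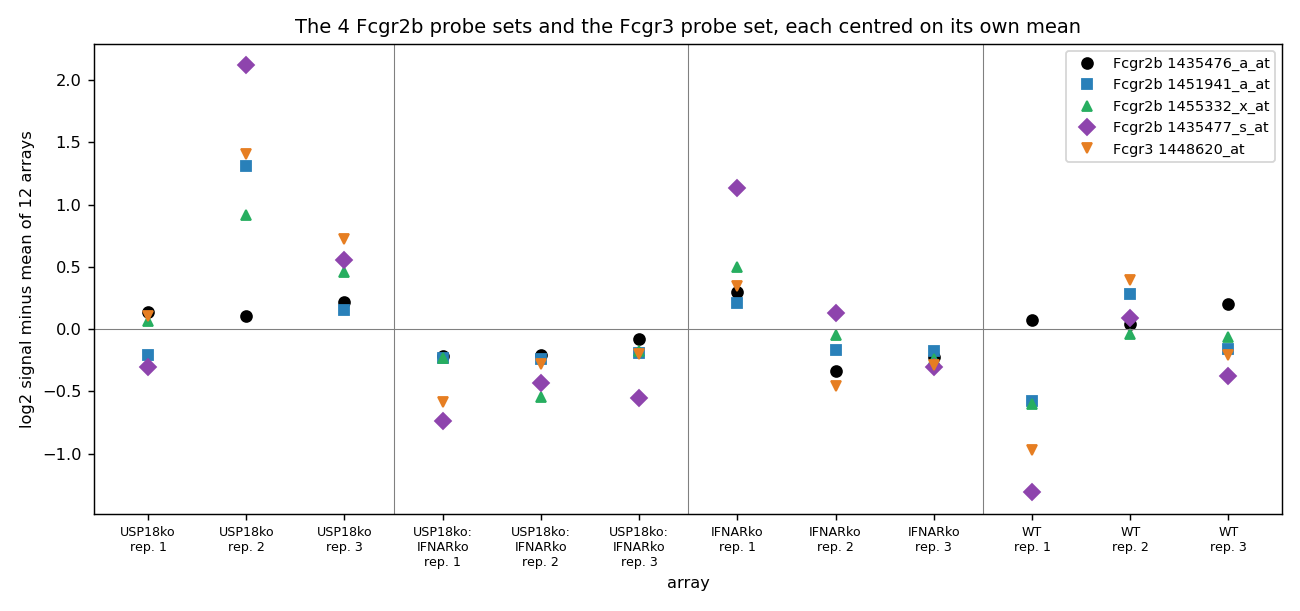
Log2 signal centred on each probe set's mean over the 12 arrays (vertical axis), array by array, for the 4 Fcgr2b probe sets and Fcgr3. The points of 3 Fcgr2b probe sets run with those of Fcgr3 and are highest at USP18ko replicate 2, and those of 1435476_a_at stay near 0.

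Over all members, the 7 probe sets had positive differences for USP18ko minus WT, and 3 of them (Fcgr1, Fcer1g and Fcgr2b 1455332_x_at) did not overlap between the groups. Of all probe sets tested, 4.1% were higher in USP18ko than in WT without overlap. In USP18ko:IFNARko brains 6 of the 7 were lower than in USP18ko brains without overlap, all but 1451941_a_at, against 7.12% of all probe sets. Both comparisons share the USP18ko arrays, which chose the members, and nothing is read from these counts.

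Only the double knockout, set against IFNARko, compared Usp18 loss on arrays that had not chosen the members. There 0 of the 7 probe sets was called by limma at an adjusted p under 0.05 (Benjamini-Hochberg over all 22626 probe sets tested), with a background of 0% called, and 0 of the 7 had an unadjusted p under 0.05, as 1889 of all probe sets (8.35%) did. Fcgr1 was at 4.81 ± 0.07 in USP18ko:IFNARko and 5.10 ± 0.04 in IFNARko (SD, n = 3 each), a difference of -0.29 with a 95% interval from -0.74 to 0.17 and a limma adjusted p of 0.585. The error of this test was taken from all 12 arrays, so it also rests on the USP18ko and WT arrays that chose the members. For Fcgr1 the SDs of USP18ko and WT were 0.43 and 0.37, above those of the groups compared. The 3 double knockout arrays lay below the 3 IFNARko arrays. The same held for the Fcgr2b probe sets 1451941_a_at and 1435477_s_at, which makes 3 of 7 lower without overlap, against 10.9% of all probe sets.

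Fcer1g differed by 0.14 in this comparison (95% interval -0.52 to 0.79, limma adjusted p = 0.871) and Fcgr3 by -0.22 (-1.01 to 0.57, limma adjusted p = 0.815). For Fcgr2b the differences were -0.08 with 1435476_a_at (-0.39 to 0.23), -0.18 with 1451941_a_at (-0.88 to 0.52), -0.39 with 1455332_x_at (-0.92 to 0.14) and -0.89 with 1435477_s_at (-2.08 to 0.30), with limma adjusted p-values of 0.831, 0.835, 0.553 and 0.551. The intervals of all 7 probe sets held 0. Whether these differences differed from those of USP18ko minus WT was not tested. IFNARko replicate 1 moved several of these values. Without it the difference was 0.11 for 1435476_a_at, -0.05 for 1451941_a_at, -0.18 for 1455332_x_at, -0.48 for 1435477_s_at, 0.017 for Fcgr3 and 0.22 for Fcer1g, while Fcgr1 stayed at -0.28. Fcer1g was at -0.037 without IFNARko replicate 2. With Eif2s3y as a covariate, which takes up part of the sex difference, Fcgr1 was at 0.0285, 1451941_a_at at 0.25, Fcgr3 at 0.48 and Fcer1g at 0.71, and 1435477_s_at was at -0.0055. Eif2s3y was low in WT replicate 1 and USP18ko:IFNARko replicates 1 and 3 alone, so the covariate rests mainly on these 2 groups. USP18ko:IFNARko replicate 2, high in both Xist and Eif2s3y, is part of that contrast.

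With WT as the baseline, the 7 probe sets differed by -0.43 to -0.04 in USP18ko:IFNARko and by -0.19 to 0.85 in IFNARko, where the highest value was that of 1435477_s_at (SE 0.55). Fcgr1 was -0.43 in USP18ko:IFNARko minus WT and -0.15 in IFNARko minus WT (SE 0.21 for both), and its double knockout arrays overlapped those of WT. Fcer1g was -0.04 in the double knockout and -0.18 in IFNARko, and Fcgr3 was -0.09 and 0.13 in the same order, each with WT as the baseline. With single arrays left out, IFNARko minus WT ran from -0.33 to 0.033 for Fcgr1, from -0.53 to 0.20 for Fcer1g, from -0.23 to 0.46 for Fcgr3 and from 0.44 to 1.16 for 1435477_s_at. For each of Fcgr1, Fcgr3 and Fcer1g the lowest value was that without WT replicate 1 and the highest that without WT replicate 2, and the lowest of 1435477_s_at was that without IFNARko replicate 1. The same omissions in USP18ko:IFNARko minus WT gave -0.62 to -0.25 for Fcgr1, -0.40 to 0.33 for Fcer1g and -0.45 to 0.24 for Fcgr3. 1 of 7 probe sets, Fcgr2b 1435476_a_at, was lower in USP18ko:IFNARko than in WT without overlap, against 9.68% of all probe sets, and all 7 overlapped between IFNARko and WT, where 5.47% of all probe sets were higher and 5.9% lower without overlap. In order of group means, USP18ko came first for the 3 genes with 1 probe set, and the 3 other groups followed with overlapping ranges, except for Fcgr1 in USP18ko:IFNARko and IFNARko.

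**Figure D3:**
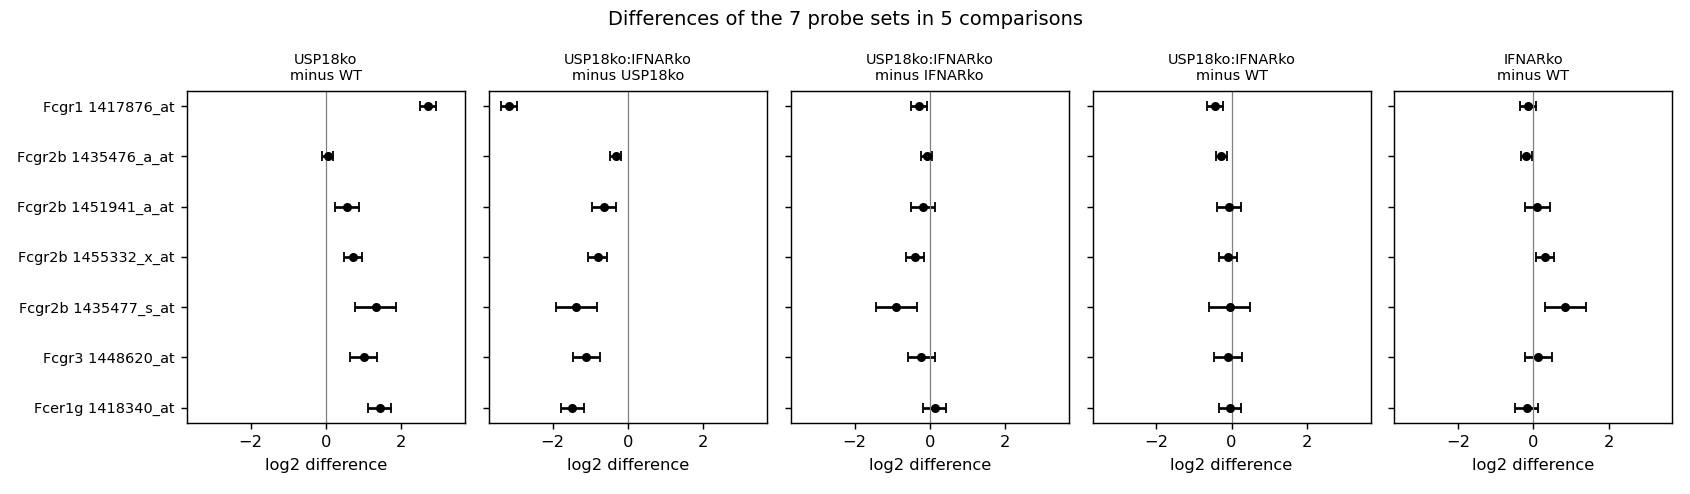
Difference of mean log2 signals (horizontal axis) with its standard error for the 7 member probe sets in the 5 comparisons. Fcgr1 has the farthest points, 2.72 in USP18ko minus WT and -3.16 in USP18ko:IFNARko minus USP18ko, and the comparisons of USP18ko:IFNARko and IFNARko stay near 0 for it.

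The 4 genes lie on 2 chromosomes, Fcgr1 on chromosome 3 and Fcgr2b, Fcgr3 and Fcer1g on chromosome 1, with Fcgr4 between Fcgr2b and Fcgr3. Of the other genes between Fcgr2b and Fcer1g, 5 had a value, and they ranged from -0.30 to -0.00 in USP18ko minus WT with 0 of 5 called.

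Promoter sequences are shown for the activating receptors with the largest differences, Fcgr1 and the related Fcgr4, with motifs known from interferon-responsive promoters and a motif of myeloid ETS factors in capitals. They are the 250 bases before the annotated start in RefSeq, build GRCm38.p6, 5′ to 3′, for Fcgr1 at chr3:96293970-96294219 on the minus strand and for Fcgr4 at chr1:171018676-171018925 on the plus strand.
Fcgr1: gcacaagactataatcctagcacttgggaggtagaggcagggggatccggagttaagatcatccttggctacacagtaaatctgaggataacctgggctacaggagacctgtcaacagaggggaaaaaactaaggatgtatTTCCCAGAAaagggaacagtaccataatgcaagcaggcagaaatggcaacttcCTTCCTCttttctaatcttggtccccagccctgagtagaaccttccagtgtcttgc
Fcgr4: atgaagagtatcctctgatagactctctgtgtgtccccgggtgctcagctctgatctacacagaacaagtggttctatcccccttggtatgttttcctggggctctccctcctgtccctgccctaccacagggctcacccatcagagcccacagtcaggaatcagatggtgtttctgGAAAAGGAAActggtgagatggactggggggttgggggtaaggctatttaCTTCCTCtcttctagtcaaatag
Each window was searched on both strands for 3 motifs. The GAS motif TTCNNNGAA, known from promoters of interferon-gamma-responsive genes, occurs in the Fcgr1 window as TTCCCAGAA, 109 to 101 bases before the start. A GAS element is also known from the promoter of human FCGR1A. The ISRE motif, read here as GAAA, any 2 bases and GAAA again, and known from promoters of type I interferon-responsive genes, was found in the Fcgr4 window as GAAAAGGAAA, 73 to 64 bases before the start. The ETS motif GAGGAAG was found on the reverse strand, as CTTCCTC, in the windows of Fcgr1, Fcgr4 and Fcgr3, and none of the 3 motifs matched in those of Fcgr2b and Fcer1g. Among 32851 promoters of this length, 7.02% hold the GAS motif, 2.98% the ISRE motif and 10.6% the ETS motif. A match describes letters only, and no binding was measured.

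The genes most like each member were found by the smallest root mean square difference of centred log2 signals over the 12 arrays. For Fcgr1, whose own root mean square about its mean was 1.29, they were Ccl5 (0.23), AW112010 (0.30), Psmb8 (0.31), Cd52 (0.32) and Psmb9 (0.34). Ccl5 is a chemokine, Psmb8 and Psmb9 are immunoproteasome subunits and Cd52 is a leukocyte surface glycoprotein. Fcer1g was at rank 62 of this order and Fcgr3 at rank 117.

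Fcer1g, with 0.74 about its mean, was nearest to Cyba (0.20), Tyrobp (0.23), C1qc (0.23), Pycard (0.24) and Gpnmb (0.26). Cyba is a subunit of the phagocyte NADPH oxidase, Tyrobp another ITAM chain, C1qc a chain of complement C1q and Pycard the inflammasome adaptor. Fcgr3, with 0.62 about its mean, was nearest to Cd53 (0.20), the microglial receptor kinase Csf1r (0.22), Pycard (0.22), Ifitm1 (0.24) and Laptm5 (0.25). Fcgr3 and Fcer1g were at rank 20 or better in each other's order, with a difference of 0.32. Fcgr2b 1435476_a_at varied by 0.20 about its mean, and its nearest genes, Padi3, Il1r1, Ptpn21, Gpr137b and Agap2, were at 0.09 for each. These values describe 12 arrays that share genotypes and array quality, and carry no p-value.

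Microglial markers were set beside the members array by array. The mean log2 signal of the 11 measured markers of 14 listed was 6.81, 7.28 and 7.12 in USP18ko brains, 6.53, 6.55 and 6.53 in USP18ko:IFNARko brains, 6.71, 6.52 and 6.60 in IFNARko brains and 6.28, 7.08 and 6.77 in WT brains. In both USP18ko and WT, replicate 2 was the highest array and replicate 1 the lowest for the marker mean and also for Fcgr1, Fcgr3 and Fcer1g. Fcgr2b 1435476_a_at did not follow this order, nor did Fcgr1 in IFNARko, where it was highest in replicate 2 and the marker mean lowest. The summed signal of the list, on a linear scale, was 2136 to 3433 in USP18ko, 1589 to 1671 in USP18ko:IFNARko, 1609 to 1956 in IFNARko and 1309 to 2178 in WT. The part of these cells in the members' values was not tested. In whole-brain RNA, fewer cells of a type and less RNA per cell cannot be told apart.

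The members are also given relative to these markers, as a description, since USP18ko and WT values chose them. Fcgr1 minus the marker mean of the same array was 0.75, 1.15 and 0.80 in USP18ko, -1.76, -1.76 and -1.64 in USP18ko:IFNARko, -1.61, -1.39 and -1.54 in IFNARko and -1.40, -1.47 and -1.51 in WT. The difference of USP18ko minus WT was 2.36 on this scale, and the spread of WT, 0.37 in the signal itself, was 0.05. For Fcer1g the same subtraction gave 1.81 ± 0.12 in USP18ko and 0.74 ± 0.34 in WT (SD, n = 3 each), a difference of 1.07 without overlap, and for Fcgr3 it gave 0.93 ± 0.42 in USP18ko and 0.29 ± 0.28 in WT with overlap (SD, n = 3 each). For Fcgr2b 1435476_a_at it gave 1.26 ± 0.25 in USP18ko and 1.58 ± 0.42 in WT (SD, n = 3 each). The spread of this probe set was wider than in the signal itself, where the SDs were 0.06 and 0.09.

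**Figure D4:**
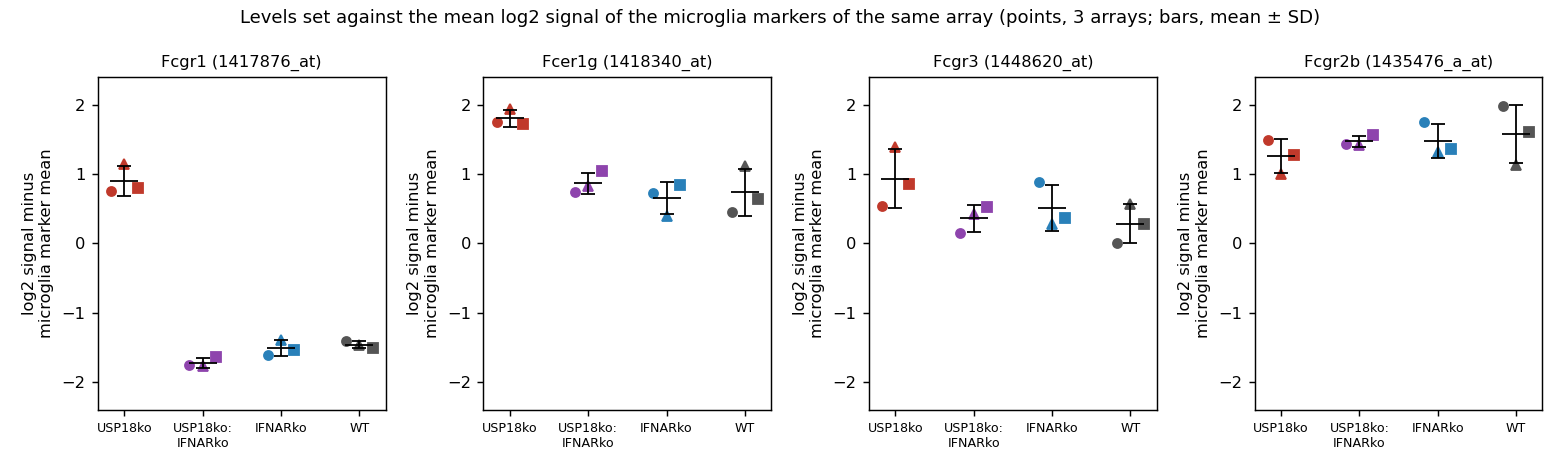
Log2 signal of Fcgr1, Fcer1g, Fcgr3 and Fcgr2b 1435476_a_at minus the mean log2 signal of 11 microglial markers on the same array (vertical axis), by genotype; points are arrays and bars are means with SD (n = 3). Fcgr1 stays between 0.75 and 1.15 in USP18ko and between -1.76 and -1.39 elsewhere, and Fcgr2b 1435476_a_at overlaps in all groups.

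Among the microglial markers 1 of 11 was called higher in USP18ko than in WT, Aif1 (1.93, SE 0.29), a calcium-binding protein of microglia and macrophages, and the list's median was 0.13. In this comparison 1.11% of all genes were called higher, with a median of -0.02 over all genes, and nothing is read from the counts here. Cx3cr1 differed by 0.35 (SE 0.24), P2ry12 by -0.35 (SE 0.27), Tmem119 by 0.41 (SE 0.19) and Csf1r by 0.89 (SE 0.22), and none of these was called. Of the perivascular macrophage markers 1 of 11 was called, Ms4a7 (1.74, SE 0.15), and Mrc1, the mannose receptor, differed by 0.46 (SE 0.23).

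Of the monocyte and neutrophil markers 1 of 11 was called higher, Plac8 (3.35, SE 0.33), against 1.11% of all genes. S100a8, another marker of this list, differed by 1.90 (SE 0.49) without a call. The summed signal of the list was 643 to 834 in USP18ko, 217 to 361 in USP18ko:IFNARko, 210 to 310 in IFNARko and 235 to 257 in WT. Plac8 made up much of it in USP18ko: the other 10 markers summed to 274 to 386 in USP18ko, 193 to 332 in USP18ko:IFNARko, 189 to 249 in IFNARko and 197 to 223 in WT, and the list's median difference of USP18ko minus WT was 0.11. The part of these cells in the members' values was not tested. In the other 10 cell type lists, those of mast, NK, B and plasma, T, dendritic and endothelial cells, platelets, neurons, astrocytes and oligodendrocytes, 0 of 83 genes were called by limma and 3 had an unadjusted p under 0.05. The share of all genes at that unadjusted p is not given for this comparison, and nothing is read from the 3. Cd3e of T cells differed by -0.00 (SE 0.14), Cd79a of B cells by -0.10 (SE 0.12), Ncr1 of NK cells by -0.05 (SE 0.22) and Cpa3 of mast cells by -0.53 (SE 0.20).

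In USP18ko:IFNARko minus USP18ko, 2 of 11 microglial markers were called lower, Aif1 (-2.31, SE 0.29) and the P-selectin ligand Selplg (-0.43, SE 0.09), against 1.36% of all genes. The list's median was -0.43, against 0.00 over all genes, and 1 of its 11 markers had a positive difference, against 6393 of all 12393 genes. Of the perivascular macrophage markers Ms4a7 was called lower (-2.06, SE 0.15), with a list median of -0.29. Of the monocyte and neutrophil markers Plac8 (-3.81, SE 0.33) and the growth factor receptor Csf3r (-0.40, SE 0.08) were called lower, with a list median of -0.21. Selplg and Csf3r were no longer called with the replicate number as a block, and their calls were lost in 14 of 21 and 15 of 21 alternatives.

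Among Fc receptors outside the members, 3 of 12 measured genes (16 listed) were called higher in USP18ko than in WT, and the median was 0.10. Of all genes 1.11% were called higher. This list and those below were chosen with earlier results of these data known, and their counts are a description. Fcgr4, the activating receptor for IgG2a and IgG2b, read 5.88, 6.75 and 6.18 in USP18ko brains, 4.28, 4.27 and 4.56 in USP18ko:IFNARko brains, 4.98, 4.28 and 4.32 in IFNARko brains and 4.48, 4.40 and 4.43 in WT brains. Every USP18ko array was above the 9 others, and USP18ko minus WT was 1.84 (SE 0.22). B2m, the light chain of class I MHC molecules and of the neonatal Fc receptor, differed by 2.28 (SE 0.29) and Trim21, a cytosolic Fc receptor, by 1.19 (SE 0.19). Fcgrt, the heavy chain of the neonatal Fc receptor, differed by 0.23 (SE 0.18) and was not called.

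The same 3 genes were the ones called lower in USP18ko:IFNARko than in USP18ko, where 1.36% of all genes were called lower. Fcgr4 fell by 1.90 (SE 0.22), B2m fell by 2.34 (SE 0.29) and Trim21 fell by 1.52 (SE 0.19), and the list's median was -0.14 against 0.00 over all genes. No gene of any list was called in USP18ko:IFNARko minus IFNARko, where 0 of all 12393 genes were called by limma and 943 (7.61%) had an unadjusted p under 0.05.

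In the activating pathway downstream of the receptors, 5 of 33 measured genes were called higher in USP18ko than in WT, against 1.11% of all genes. The median was 0.19. The 5 genes were Cybb (1.10, SE 0.14), Cyba (1.38, SE 0.29) and Ncf4 (1.17, SE 0.21), all parts of the phagocyte NADPH oxidase, the small GTPase Rac2 (1.10, SE 0.16) and the adaptor Lcp2 (0.54, SE 0.11). The double knockout had 4 of the 33 called lower than USP18ko, namely Ncf4 (-1.63, SE 0.21), Rac2 (-1.41, SE 0.16), Cybb (-1.11, SE 0.14) and Lcp2 (-0.60, SE 0.11), and the median was -0.18. Of all genes 1.36% were called lower. The kinase Syk, the first enzyme recruited to the phosphorylated chain, differed by 0.14 (SE 0.14) in USP18ko minus WT and by 0.00 (SE 0.14) in USP18ko:IFNARko minus USP18ko. The call of Lcp2 in USP18ko minus WT was lost in 18 of 22 alternative settings that of Cyba in 13 of 22 and that of Ncf4 in 5 of 21. Lcp2 lost it in 6 of 22 in USP18ko:IFNARko minus USP18ko.

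Among 21 measured genes of the inhibitory pathway of ITIM receptors 0 were called in either comparison by limma. At an unadjusted limma p under 0.05 there were 5 in USP18ko minus WT and 6 in USP18ko:IFNARko minus USP18ko. The share of all genes at that threshold is not given for these comparisons, so nothing is read from these counts. The medians were 0.11 and -0.14 in the same order. Inpp5d, the phosphatase SHIP1 that Fcgr2b recruits, differed by 0.16 (SE 0.15) in USP18ko minus WT, and Ptpn6, the phosphatase SHP-1, by 0.22 (SE 0.14). Of the other ITAM chains and their partner receptors, 1 of 17 was called higher in USP18ko than in WT, against 1.11% of all genes. It was Itgb2 (1.14, SE 0.14), the beta chain of leukocyte integrins. Tyrobp differed by 1.26 (SE 0.44) and Trem2, a microglial receptor that signals through it, by 0.60 (SE 0.22), neither with a call. Against USP18ko, 2 of 17 were called lower in USP18ko:IFNARko, Itgb2 (-1.39, SE 0.14) and the lectin receptor Clec4n (-0.81, SE 0.13), with a median of -0.20. Of all genes 1.36% were called lower.

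Of 19 measured genes of Fc receptor phagocytosis and complement, 3 were called higher in USP18ko than in WT, against 1.11% of all genes. The list's median was 0.29. C3ar1, the receptor of complement fragment C3a, differed by 1.55 (SE 0.15), C1qa, a chain of the complement protein that recognises immune complexes, by 1.79 (SE 0.37), and Itgam, the CD11b integrin chain of phagocytes, by 0.80 (SE 0.14). In USP18ko:IFNARko minus USP18ko 4 of the 19 were called lower, C3ar1 (-2.04, SE 0.15), C1qa (-1.91, SE 0.37), C1qb (-1.82, SE 0.37) and Itgam (-0.72, SE 0.14), with a median of -0.22. Of all genes 1.36% were called lower in this comparison. With the replicate number as a block Itgam was no longer called there. Its call was lost in 9 of 21 alternatives, that of C1qb in 9 of 22 and that of C1qa in 7 of 22. For USP18ko minus WT the calls of C1qa were lost in 12 of 22 and those of Itgam in 6 of 21.

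Type I interferon response genes set the scale of the response in the same arrays. Of 20 measured, 18 were called higher in USP18ko than in WT with a median of 3.32, and 19 were called lower in USP18ko:IFNARko than in USP18ko with a median of -3.53. Ifit1, an interferon-induced RNA-binding protein, differed by 4.87 (SE 0.20) in USP18ko minus WT and by -5.20 (SE 0.20) in USP18ko:IFNARko minus USP18ko. Over all lists together 33 genes were called in USP18ko minus WT, with counts of 32 without WT replicate 1 in the fit and 36 without IFNARko replicate 1. In USP18ko:IFNARko minus USP18ko 37 were called, with 41 and 45 under the same omissions.

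**Figure D5:**
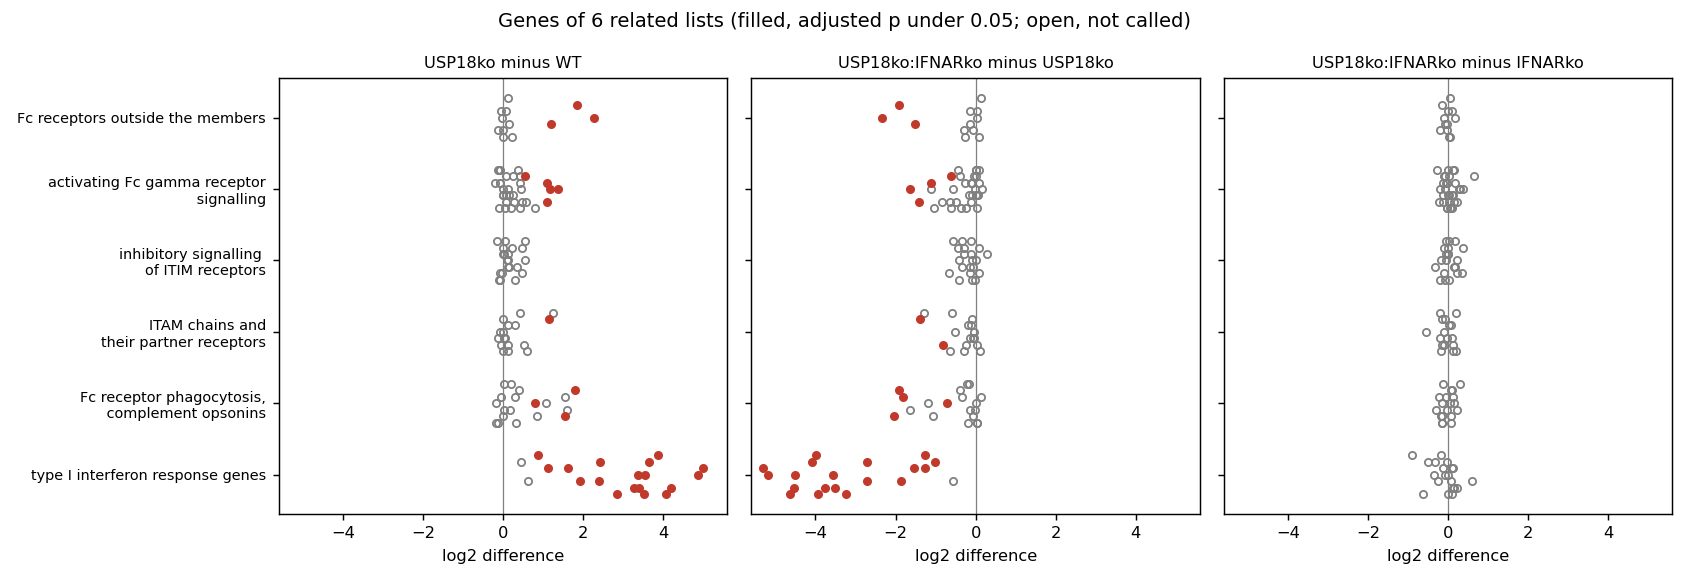
Difference of mean log2 signals (horizontal axis) for every measured gene of the 6 pathway lists in USP18ko minus WT, USP18ko:IFNARko minus USP18ko and USP18ko:IFNARko minus IFNARko; filled points passed an adjusted p under 0.05 over all probe sets. The interferon genes lie farthest from 0, with medians of 3.32 and -3.53, no point of the ITIM list is filled, and no point of any list is filled in USP18ko:IFNARko minus IFNARko.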

How the data were processed

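Whole-brain RNA of 12 samples was measured on one-colour arrays. The deposited log2 signals per probe set were made by the authors with the R package affy, per the submitters' processing notes; background correction, normalization and probe summary: not given in the sources used here. Base 2 was inferred from the values (2.36 to 13.81, array medians 6.98 to 7.07). Of 22690 probe sets, 64 controls were left out. In the platform annotation 20380 had 1 gene, 691 several, and 1555 were not named here. One limma fit (version 3.58.1, R 4.3.3) over the 12 arrays modelled genotype alone, with 8 residual and 3.79 prior degrees of freedom. Benjamini-Hochberg adjustment of the two-sided p-values ran over 22626 probe sets, and calls needed an adjusted p under 0.05. A listed gene was represented by its probe set with the highest mean. An exact test of 3 against 3 cannot go below 0.1, so calls rest on the spread shared across probe sets.

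The members, lists and tests were chosen with earlier results of these data known. Named genes are the members, array checks, the 5 genes most like each member, up to 6 called genes of each pathway list and 4 of each marker list, and a fixed set of receptor, signalling and marker genes; Fcer1a, Trem2, Mog and Mbp were added after their values were seen. Same-numbered arrays deviated together in USP18ko:IFNARko minus USP18ko (correlations 0.10, 0.26 and 0.15 over probe sets), not in every pair elsewhere. The labels do not pair the arrays. Alternatives covered normalization, filtering, probe set choice, variance models, array weights, a sex marker, the block and single arrays left out. The number of arrays limits the precision. The fit was also run on simulated data with independent normal noise. The simulated arrays held no outlying array and no sex difference, so that run does not bear on these features of the data.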

Additional observations from a re-analysis of the deposited data

Results flagged for a closer look

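For Fcgr1 the arrays of the 2 groups that differ in Usp18 did not overlap either with or without Ifnar1, and the differences had opposite signs. USP18ko minus WT was 2.72, with every USP18ko array above every WT array, and USP18ko:IFNARko minus IFNARko was -0.29, with every double knockout array below every IFNARko array, a difference that limma did not call (95% interval -0.74 to 0.17, adjusted p = 0.585). The difference between these 2 values was not tested, since the members were chosen on the USP18ko and WT arrays. Of all probe sets 4.1% were higher without overlap in USP18ko than in WT, and 10.9% lower in USP18ko:IFNARko than in IFNARko. Xist was high in the 3 double knockout arrays and low in the IFNARko arrays. With Eif2s3y as a covariate, Fcgr1 was at 0.0285 in USP18ko:IFNARko minus IFNARko, so the opposite sign did not hold there.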

How the results depend on the processing

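Member calls in USP18ko:IFNARko minus IFNARko were 0 in all 22 alternatives. Of all probe sets 0 to 3 were called in these settings, and 241 with array weights, so few member calls were possible in most of them. The setting without dim probe sets held no value for Fcgr1 or most Fcgr2b probe sets. Member differences in USP18ko:IFNARko minus IFNARko changed sign with Eif2s3y as covariate for Fcgr1 (0.0285), 1451941_a_at (0.25) and Fcgr3 (0.48), where Fcer1g was at 0.71 and 1435477_s_at at -0.0055, and with array weights for 1435476_a_at (0.079). With single arrays left out they ran from -0.20 to 0.11 for 1435476_a_at, -0.38 to 0.017 for Fcgr3 and -0.037 to 0.22 for Fcer1g. Member medians ran from -1.42 to -0.70 in USP18ko:IFNARko minus USP18ko (-0.62 with the covariate, main -1.10) and from -0.40 to 0.15 in USP18ko:IFNARko minus WT.

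Array weights were estimated gene by gene, a choice made after seeing the data because the default estimate did not converge. In USP18ko:IFNARko minus IFNARko they gave 2 list genes and 241 probe sets. In USP18ko minus WT they gave 55 list genes (main 33) and 523 probe sets (main 221). In USP18ko:IFNARko minus USP18ko they gave 57 (main 37) and 598 (main 270), in USP18ko:IFNARko minus WT 29 and 2306 (main 0 for both), and in IFNARko minus WT 52 (main 0) and 2884 (main 4).

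Without dim probe sets (mean signal under the percentile 40, which leaves out Fcgr1 and 3 Fcgr2b probe sets) 11 list genes and 63 probe sets were called in USP18ko minus WT, 12 and 75 in USP18ko:IFNARko minus USP18ko, and 2 probe sets in IFNARko minus WT. With only the 2 groups compared, 3 probe sets were called in USP18ko:IFNARko minus IFNARko, 441 in USP18ko:IFNARko minus USP18ko, 2 in USP18ko:IFNARko minus WT and 2 in IFNARko minus WT. One probe set per gene gave 143 calls in USP18ko minus WT, 2 in USP18ko:IFNARko minus WT and 1 in IFNARko minus WT. The mean of a gene's probe sets gave 2 in USP18ko:IFNARko minus WT and 1 in IFNARko minus WT. The Eif2s3y covariate gave 173 in USP18ko:IFNARko minus USP18ko, 1 in USP18ko:IFNARko minus WT and 0 in IFNARko minus WT, and quantile normalization gave 2 in IFNARko minus WT. With single arrays left out, 0 to 2 probe sets were called in USP18ko:IFNARko minus IFNARko, 0 to 3 in USP18ko:IFNARko minus WT and 0 to 13 in IFNARko minus WT. The causes were not tested, beyond fewer probe sets or arrays in the fit.

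With the replicate block, 255 probe sets were called in USP18ko:IFNARko minus USP18ko, 205 in USP18ko minus WT, 1 in USP18ko:IFNARko minus IFNARko and 1 in IFNARko minus WT, and the list genes Itgam, Selplg and Csf3r lost their call in USP18ko:IFNARko minus USP18ko. Without detection calls, low signals could not be set against background.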
